A study of Mus musculus with 87 samples.

Results

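The genes described here are 10 members of the ATF4 branch of the integrated stress response: Atf4, Atf3, Ddit3, Chac1, Trib3, Asns, Sesn2, Psat1, Phgdh and Slc7a11, out of 26171 gene symbols in each comparison table. They were read by symbol in all 13 tables. The set was chosen by measured values: the fold changes of Chac1 and Trib3, the largest falls in embryonic stem cells (ESC) that carry the long-isoform rescue of the Suz12 knock-out. That comparison with wild type is therefore described below without a test. In the integrated stress response, kinases that sense amino acid shortage, heme shortage, viral RNA or misfolded protein in the endoplasmic reticulum phosphorylate the initiation factor eIF2 alpha. General translation then slows while the ATF4 messenger is translated more, and ATF4 switches on genes for amino acid synthesis, amino acid uptake and stress control. Dividing stem cells have a high demand for amino acids, and several of these genes are well expressed in them.

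The study asked how the 2 splice forms of Suz12, a core subunit of the Polycomb complex PRC2 that methylates histone H3 on lysine 27, act in mouse ESC of the line 129-B13 and in neural precursors (NP) made from them. ESC were grown in 20% serum with LIF. NP came from embryoid bodies that received retinoic acid on day 4 and were harvested on day 8. RNA was sequenced from 32 samples. The ESC groups were wild type (WT, 3 samples), a WT line in which exon 4 is constitutive (CSex4, 2), a line with Suz12 exon 4 deleted (Deltaex4, 2), the full Suz12 knock-out (KO, 3), KO cells with a rescue by the long isoform (KO-L, 2) or the short isoform (KO-S, 2), and KO cells rescued from the Rosa26 locus with either isoform carrying the so-called 3D mutation at position 196, downstream of exon 4 (KO-L3D and KO-S3D, 2 each). The NP groups were 4 samples of WT and 2 each of KO, of CSex4 and Deltaex4, and of the rescues KO-L and KO-S. The 4 rescue lines all lack the endogenous Suz12, as the KO does. The labels do not say whether the samples of a group are separate clones or cultures, so p-values measure the spread between these samples, which may be technical. In these bulk samples, fewer cells of a type and less RNA per cell cannot be told apart.

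Whole reads of each library were recovered from the tables (100% of genes), and levels are given as CPM, reads scaled to a common library total. Library totals lay between 23570194 and 47201666 reads. CPM does not correct for transcript length, so levels are compared between samples and never between genes. Libraries are lettered a, b and c in no order. NP WT forms 2 pairs: pair 1 serves the comparisons of CSex4, of Deltaex4 and of KO with WT, and pair 2 a further table of WT against KO. All 7 ESC tables share the same WT libraries, and the 4 NP tables with KO share its 2 libraries. In the 6 ESC tables other than that of KO, WT library a has no partner and does not move the effects. Suz12 lay between 149 and 288 CPM in ESC WT and between 45.3 and 92.8 in ESC KO, and between 105 and 197 in NP WT against 41.9 and 43.9 in NP KO. All 7 ESC markers were expressed in every ESC group, with a summed level of 2086 to 7887 CPM. The 7 neural precursor markers summed to 359 to 1258 CPM in NP WT but only to 98.8 and 107 in NP KO. The 2 NP CSex4 libraries differed by little more than sampling noise (chi-square of 2.42 per degree of freedom, against 10.8 to 140.3 in every other replicate pair). They were kept as 2 samples, as labelled.

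ATF4 with a C/EBP partner binds a C/EBP-ATF response element, often written TGATGNAA. It was searched on both strands of the RefSeq promoter windows (GRCm38.p6, 250 bases before to 50 after the start), which covered all 10 genes with 11 windows. A match lay in the promoters of 5 of the 10 genes, against 3.97% of all 32851 windows. With C at the open position, 3 of the 10 genes had a match, against 0.895% of windows. The matched stretches are shown because these genes include the pair on which the choice rested, Chac1 and Trib3. They run 5′ to 3′ in the direction of the gene, with the matches in capitals. TTGCATCA and TTACATCA are the same element read on the other strand.
Chac1, chr2:119351023-119351082, plus strand: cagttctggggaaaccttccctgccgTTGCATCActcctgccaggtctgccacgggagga
Trib3, chr2:152344028-152344057, minus strand: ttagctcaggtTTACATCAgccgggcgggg
Atf3, chr1:191183410-191183469, minus strand: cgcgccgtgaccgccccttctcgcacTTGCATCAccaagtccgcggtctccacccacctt
Asns, chr6:7693199-7693258, minus strand: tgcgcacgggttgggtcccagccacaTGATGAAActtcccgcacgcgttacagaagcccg
Slc7a11, chr3:50443627-50443705, minus strand: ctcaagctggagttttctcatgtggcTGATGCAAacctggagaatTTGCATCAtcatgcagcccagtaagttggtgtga
The match began 193 bases before the start of Chac1, 110 before Atf3 and 23 before Asns, and 14 bases after the first base of Trib3. Slc7a11 held a pair of matches on opposite strands, 66 and 47 bases before the start that this window uses. That start lies inside the full annotated span of the gene (chr3:50364936-50499087), not at its outer end. No match to these letters was in the windows of Atf4, Ddit3, Sesn2, Psat1 and Phgdh. A match is a description of the sequence, not evidence of binding.

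**Figure D1:**
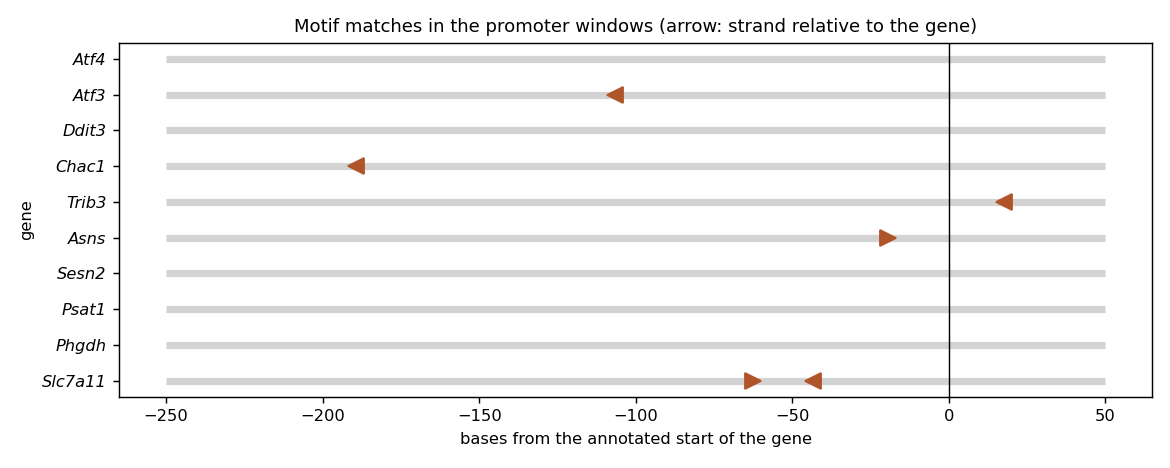
Positions of the element in the promoter windows of the 10 genes, in bases from the annotated start (x axis); each grey bar is 1 gene's window, and arrows point along the strand of the match relative to the gene. The 5 genes with a match are Atf3, Chac1, Trib3, Asns and Slc7a11, and Slc7a11 has matches on opposite strands.

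In ESC WT the stress genes varied more between libraries than the synthesis enzymes Psat1 and Phgdh. Chac1, an enzyme that breaks down glutathione, stood at 32.9, 27.9 and 114 CPM in WT libraries a, b and c. Trib3, a pseudokinase that is induced by ATF4 and restrains its activity, stood at 42.5, 48.4 and 153 CPM. Library c was thus at 3.76 times the mean of a and b for Chac1 and at 3.36 times for Trib3. The same library was the highest for Ddit3, the pro-apoptotic factor CHOP (8.30, 5.87 and 19.4 CPM), and for Atf3, a repressor of the same bZIP family (6.95, 4.68 and 15.7 CPM). Sesn2, a leucine sensor that lowers mTORC1 activity, was 2.32-fold higher in c, Asns (asparagine synthetase) 1.98-fold and Atf4 itself 1.68-fold. Psat1 and Phgdh, enzymes of serine synthesis, were at 1.06 and 1.11 times the mean of a and b. Slc7a11, the cystine importer xCT, was lower in c, at 0.664 of that mean. Among 12836 expressed genes, the ratio of Trib3 lay at percentile 98.7 and that of Atf4 at percentile 91.6. Library c also stood apart in general: 4.88% and 8.96% of expressed genes differed more than 2-fold from a and b, which differed from each other in 0.777%. Its endoderm markers summed to 58.1 CPM against 2.39 and 2.35 in a and b. Their part in the levels of the stress genes was not tested. Because library c carries weight in every ESC comparison with WT, the main values of each are given below with and without it. Values without it are ratios of group means, in which library a counts, so each is set beside the same ratio with it.

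**Figure D2:**
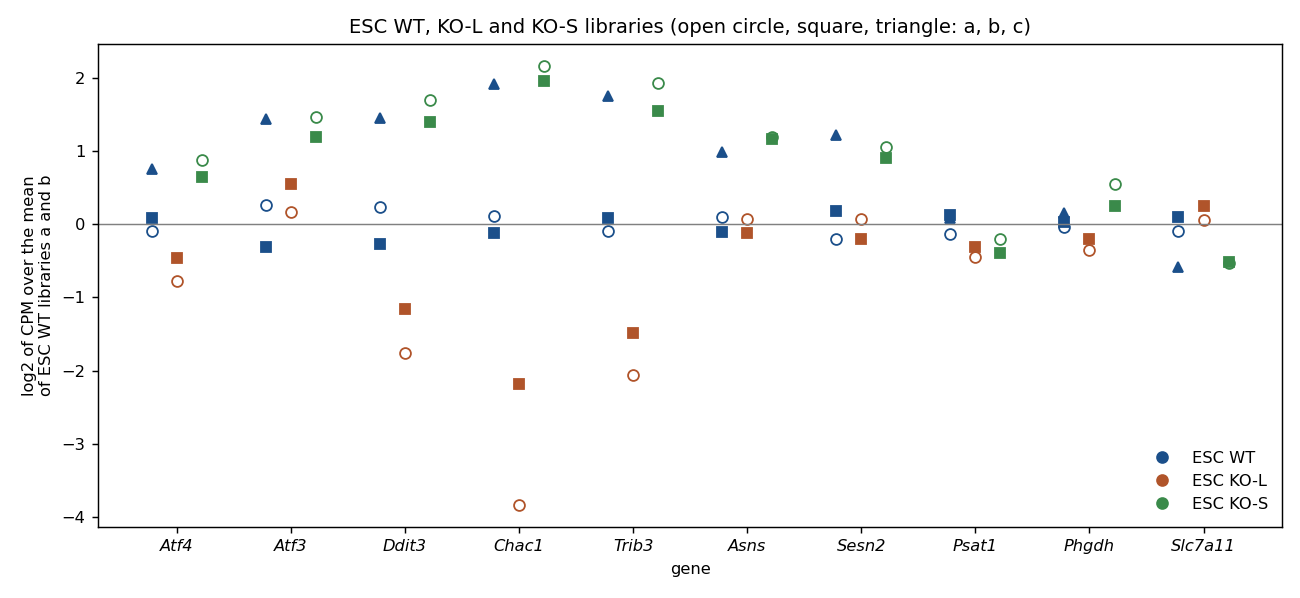
The 10 genes (x axis) in ESC WT, KO-L and KO-S libraries, as the log2 of CPM over the mean of WT libraries a and b (y axis); each symbol is 1 library. WT library c sits near KO-S for Chac1, Trib3, Ddit3, Atf3, Sesn2 and Asns. Both KO-L libraries lie below all 3 WT libraries for Chac1, Trib3, Ddit3, Atf4, Psat1 and Phgdh.

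In KO-L cells, the comparison that chose the genes, Chac1 stood at 2.13 and 6.70 CPM and Trib3 at 10.9 and 16.2 CPM. Ddit3 stood at 2.09 and 3.17 CPM and Atf4 at 193 and 239 CPM. For these 4 genes both KO-L libraries were below all 3 WT libraries, library c or not, as they were for Psat1 and Phgdh. This only describes the contrast that chose the genes, and the share of all genes with the same order is not reported here. The authors' deposited table gives log2 fold changes of -3.97 for Chac1, -2.76 for Trib3, -2.13 for Ddit3 and -1.10 for Atf4. These 4 genes are past an adjusted p of 0.05 there, as are 2.23% of all genes tested, 0.771% as lower, and nothing is read from this count since the contrast chose the set. The next value by size was -0.82 for Sesn2, so the order drops from the 3 effectors through Atf4 to genes between -0.55 and 0.33 on the log2 scale. Without WT library c, the log2 ratio of group means was -2.84 for Chac1, -1.81 for Trib3, -1.48 for Ddit3 and -0.68 for Atf4. With it, the same ratios were -3.76, -2.63, -2.13 and -0.96. Sesn2 (83.2 and 68.7 CPM), Asns (372 and 326) and Slc7a11 (190.2 and 216) overlapped WT in KO-L. Psat1 (393 and 431) and Phgdh (224 and 247) were below all 3 WT libraries, and Atf3 (6.53 and 8.51) overlapped them. Set against KO rather than WT, the difference for KO-L was -3.34 ± 0.86 (SE) on the log2 scale for Chac1, -1.79 ± 0.49 for Trib3 and -1.47 ± 0.42 for Asns, from the authors' deposited tables. These too rest on the contrast that chose the genes and are given without a test. The KO-L libraries also held more RNA of 3 marker lists: mesenchyme markers summed to 72.6 and 75.1 CPM against 9.15 to 13.8 in WT, neural precursor markers to 203 and 255 against 60.2 to 166, and trophoblast markers to 26.98 and 10.5 against 2.41 to 5.12. Their part in the low stress gene levels was not tested.

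Over all 18 ESC libraries Chac1 spanned a 91.9-fold range, the widest of the 10 genes, followed by Ddit3 (22.9-fold) and Trib3 (21.9-fold). By group mean its order from the lowest was KO-L (4.41 ± 3.23 CPM, SD, n = 2), CSex4 (14.9 ± 17.3), KO (34.5 ± 10.4, n = 3), WT (58.3 ± 48.5, n = 3), KO-S3D (108 ± 35.3), KO-S (127 ± 12.5), Deltaex4 (128 ± 68.0) and KO-L3D (146 ± 70.6). Every pair of neighbours in this order overlapped in its libraries. Trib3 followed Chac1 closely over the libraries (Pearson r of log2 CPM 0.97, n = 18), as did Atf4 (0.94) and Ddit3 (0.91). Phgdh (0.81), Asns (0.72), Sesn2 (0.69), Psat1 (0.61) and Atf3 (0.50) followed it less, and Slc7a11 ran the other way (-0.74). The libraries share lines and include the 2 of KO-L, whose comparison chose the genes, so these coefficients describe the set and carry no p. The lowest values of Chac1, Ddit3 and Trib3, which set the width of their ranges, were in KO-L too. Asns had another order: CSex4 was lowest (233 ± 67.0 CPM, n = 2) and KO-L3D highest (1727 ± 108, n = 2), apart from the next group, KO (969 ± 108, n = 3). Atf4 had a narrower range, from 216 ± 32.4 CPM in KO-L to 691 ± 84.6 in KO-S3D, and each group overlapped its neighbour in the order.

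**Figure D3:**
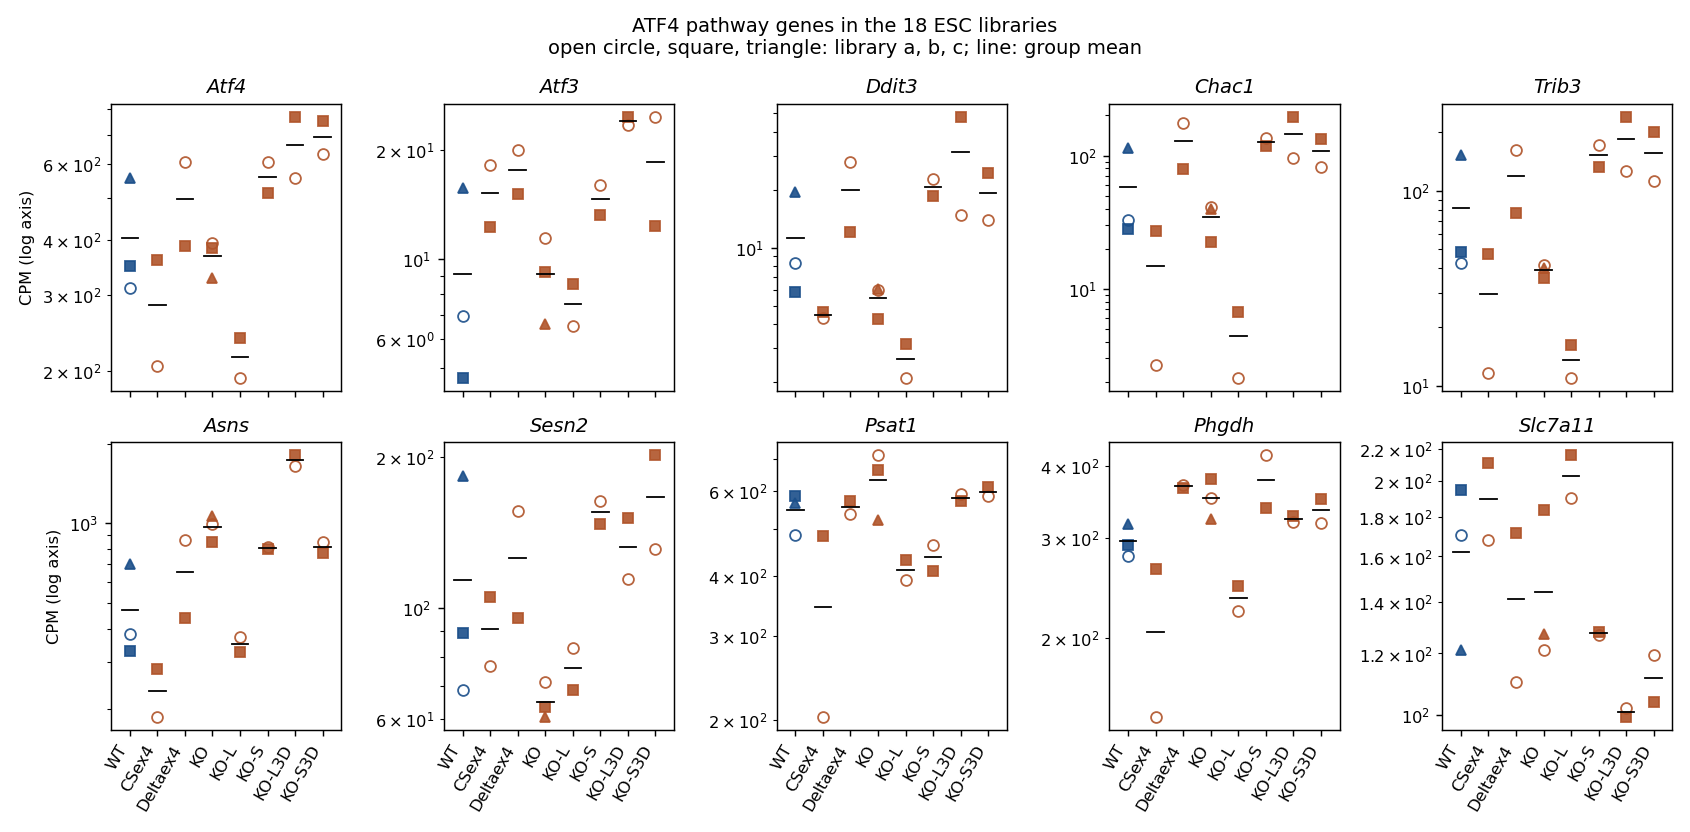
CPM (log axis) of the 10 genes in the 18 ESC libraries by group; symbols are libraries, lines are group means, and WT is in blue. Chac1, Trib3, Ddit3 and Atf4 are lowest in KO-L and high in KO-S, KO-L3D and KO-S3D, while WT is split between library c and the other two.

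In ESC KO, Asns rose and Trib3 and Sesn2 fell, while Atf4 gave no call. Asns stood at 997, 850.5 and 1061 CPM against 381, 329 and 701 in WT, and the authors' deposited table gives a log2 fold change of 0.94 ± 0.27 (adjusted p 0.0054). All 3 KO libraries were above all 3 WT libraries. Trib3 stood at 41.6, 35.9 and 40.0 CPM, with -0.97 ± 0.36 in the authors' deposited table (adjusted p 0.0392). This test shares its WT libraries with the KO-L comparison that chose Trib3, so it is not independent of the choice. The same holds for Chac1 and Trib3 in every ESC comparison with WT. Sesn2 stood at 71.2, 63.3 and 60.7 CPM against 68.6, 89.1 and 183, with -0.86 ± 0.29 in the authors' deposited table (adjusted p 0.0228). In this comparison 18.3% of genes were called, 7.27% as lower, so 3 of 10 members is not far from the background. Without WT library c the log2 ratio of means was 1.26 for Asns, -0.42 for Trib3 and -0.48 for Sesn2, in place of 0.87, -1.23 and -0.99 with it. On CPM, KO library a lay above WT library a in Sesn2, with library c or without it. Atf4 had -0.28 ± 0.22 and Chac1 -0.63 ± 0.80 in the authors' deposited table (adjusted p 0.427 and 0.66). Without library c their log2 ratios of means were -0.04 and -0.02, in place of -0.32 and -0.94 with it. The median over the 10 genes was -0.32 against -0.02 over all genes with a baseMean of at least 10. In a limma-voom fit on the recovered reads without replicate pairing, only Asns passed (0.96 ± 0.27, adjusted p 0.0251), with 19.0% of genes called. ESC markers summed to 6736 to 7887 CPM in KO against 3623 to 4900 in WT, and trophoblast markers to 34.6 to 66.6 against 2.41 to 5.12. Their part in these changes was not tested.

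No member was called in KO-S cells against WT, where 7.91% of genes were called and 4 of the 10 had an unadjusted p under 0.05. Chac1 stood at 136 and 118 CPM and Trib3 at 173 and 133 CPM in KO-S. These levels lie near WT library c and above a and b. Endoderm markers summed to 106 and 146 CPM in KO-S, also nearer to library c (58.1) than to a and b (2.39 and 2.35), and their part was not tested. The authors' deposited table gives 1.01 ± 0.37 for Chac1 (adjusted p 0.0716) and 0.66 ± 0.32 for Trib3 (adjusted p 0.228). Without WT library c the ratio to WT was 3.77-fold for Chac1, 3.01-fold for Trib3, 2.65-fold for Ddit3 and 2.28-fold for Atf3. In the limma-voom fit 0 of 10 members passed with library c (15.2% of genes called) and 4 without it (Chac1, Trib3, Atf3 and Asns, all higher, with 19.6% of genes called), so that library decides the call. Against KO rather than WT, KO-S had higher Trib3, by 1.63 ± 0.48 (adjusted p 0.0248), and higher Ddit3, by 1.82 ± 0.58 (adjusted p 0.0451), in a z test on the difference of the authors' deposited tables. Here 3.76% of genes were called, 1.13% as higher. Ddit3 stood at 22.9 and 18.6 CPM in KO-S and at 6.02, 4.24 and 6.08 in KO, with no overlap. Chac1 differed by 1.64 (95% interval -0.08 to 3.36) and Sesn2 by 0.98 (0.18 to 1.79), neither called. The limma-voom fit, without pairing, called Trib3, Ddit3 and Sesn2 higher in KO-S than in KO (16.0% of genes called), and called no member once any 1 of the KO or KO-S libraries was left out.

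KO-L3D cells stood above KO-L cells in Chac1, Trib3 and Ddit3, and they also held less Suz12 RNA. Suz12 stood at 67.1 and 96.4 CPM in KO-L3D, which overlaps KO, and at 109 and 123 in KO-L. Against WT it gave -1.85 ± 0.28 in KO-L3D and -1.82 ± 0.22 in KO, in the authors' deposited tables. The 3D mutation and the Suz12 level therefore cannot be told apart in this pair of lines. In the short isoform lines Suz12 stood at 143 and 144 CPM in KO-S and at 186 and 332 in KO-S3D. In KO-L3D, Chac1 stood at 96.0 and 196 CPM, Trib3 at 127 and 240.0 CPM and Ddit3 at 14.7 and 48.1 CPM. As a description, since KO-L chose the genes, KO-L3D minus KO-L was 4.92 ± 0.45 on the log2 scale for Chac1, 3.44 ± 0.45 for Trib3, 3.11 ± 0.60 for Ddit3 and 1.33 ± 0.38 for Atf4, from the authors' deposited tables. Against WT, 4 members rose and 1 fell in KO-L3D, where 18.3% of genes were called, 8.22% as higher and 10.1% as lower. Asns stood at 1650.5 and 1804 CPM, above every other ESC library, with 1.51 ± 0.29 in the authors' deposited table (adjusted p 1.2e-05). Atf3 rose by 1.15 ± 0.44 (adjusted p 0.0487), Ddit3 by 0.98 ± 0.36 (adjusted p 0.038) and Chac1 by 0.94 ± 0.31 (adjusted p 0.0207) in the authors' deposited table. Ddit3 and Chac1 overlapped WT through library c, while Atf3 (23.5 and 24.8 CPM) did not. Slc7a11 stood at 102 and 99.5 CPM, below all WT libraries, and fell by 0.95 ± 0.32 (adjusted p 0.0207, authors' deposited table). Without library c the log2 ratio of group means was 1.95 for Asns, 1.73 for Atf3, 1.86 for Ddit3 and -1.20 for Slc7a11. With it, these ratios were 1.57, 1.11, 1.22 and -1.01. Chac1 was 3.88-fold higher without library c, a log2 ratio of 1.96 against 1.05 with it. The limma-voom fit called Atf3, Asns and Slc7a11 with all libraries (39.7% of genes called), and Ddit3, Chac1 and Trib3 besides without library c (39.5%). Trophoblast markers summed to 336 and 79.8 CPM in KO-L3D and to 271 and 6.75 in KO-S3D, against 2.41 to 5.12 in WT. Their part in the member levels was not tested.

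KO-L3D also exceeded KO in Ddit3, by 2.02 ± 0.55 (adjusted p 0.0286), and in Trib3, by 1.65 ± 0.46 (adjusted p 0.0395), in the z test on the authors' deposited tables, in which 1.13% of genes were called, 0.378% as higher. Those are the same 2 members called for KO-S against KO, and both differences share the KO and WT libraries. In KO-S3D no member was called against WT (3.23% of genes called, 0 of 10 with an unadjusted p under 0.05). Chac1 stood at 82.5 and 132 CPM and Atf4 at 631 and 751 CPM. Without WT library c their log2 ratios of group means were 1.67 and 0.89, against 0.76 and 0.62 with it. The limma-voom fit called 5 members higher and 1 lower without library c (25.2% of genes called), against 0 with it (23.6%). KO-S3D minus KO-S gave no call among the members and an unadjusted p under 0.05 for none of them, with 0.732% of genes called. For Chac1 this difference was -0.30 with a 95% interval of -1.58 to 0.97, and for Atf4 0.28 with -0.61 to 1.17. A fall of Chac1 by up to 1.58 and a rise of Atf4 by up to 1.17 on the log2 scale remain within the intervals.

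Among cells that keep the endogenous gene, mean Chac1 was low in CSex4 ESC and high in Deltaex4 ESC, with wide spread. Chac1 stood at 2.67 and 27.2 CPM in CSex4, against 27.9 CPM in the lowest WT library, b. The low mean thus rests on CSex4 library a, since library b was about level with WT library b. In Deltaex4, Chac1 stood at 176 and 79.8 CPM, which overlapped WT library c. The CSex4 libraries differed from each other in Trib3 (11.6 and 47.4 CPM) and Psat1 (203 and 485 CPM) too, while Ddit3 (4.31 and 4.63 CPM) was low in both. No member was called in CSex4 against WT (2.41% of genes called, 5 of 10 with an unadjusted p under 0.05), nor in Deltaex4 (0.0% called, 0 of 10). The authors' deposited table gives -2.81 ± 1.77 for Chac1 and -1.16 ± 0.40 for Asns in CSex4 (adjusted p 0.612 and 0.0938), and 0.97 ± 0.59 for Chac1 in Deltaex4 (adjusted p 1). Without WT library c the log2 ratio of group means for Chac1 was -1.06 in CSex4, against -1.99 with it. In Deltaex4 the ratio was 3.91-fold without it, 1.97 on the log2 scale against 1.05 with it. The median over the 10 genes was -0.88 in CSex4 and 0.22 in Deltaex4, against 0.00 and -0.01 over all genes. CSex4 minus Deltaex4 was -3.79 for Chac1 (95% interval -7.44 to -0.14) and -2.04 for Ddit3 (-3.65 to -0.43), and no member was called, with 0.0766% of genes called. In that difference 3 of 10 members had an unadjusted p under 0.05. CSex4 libraries a and b, of which a was the lower in Chac1, had the highest and the third highest summed neural precursor markers of the ESC libraries (458 and 234 CPM, against 60.2 to 166 in WT). Both were also outside the WT range in mesenchyme markers (59.0 and 32.9 CPM against 9.15 to 13.8), trophoblast markers (13.1 and 7.98 against 2.41 to 5.12) and ESC markers (2086 and 2997 against 3623 to 4900). The part of these lists in the result was not tested.

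**Figure D4:**
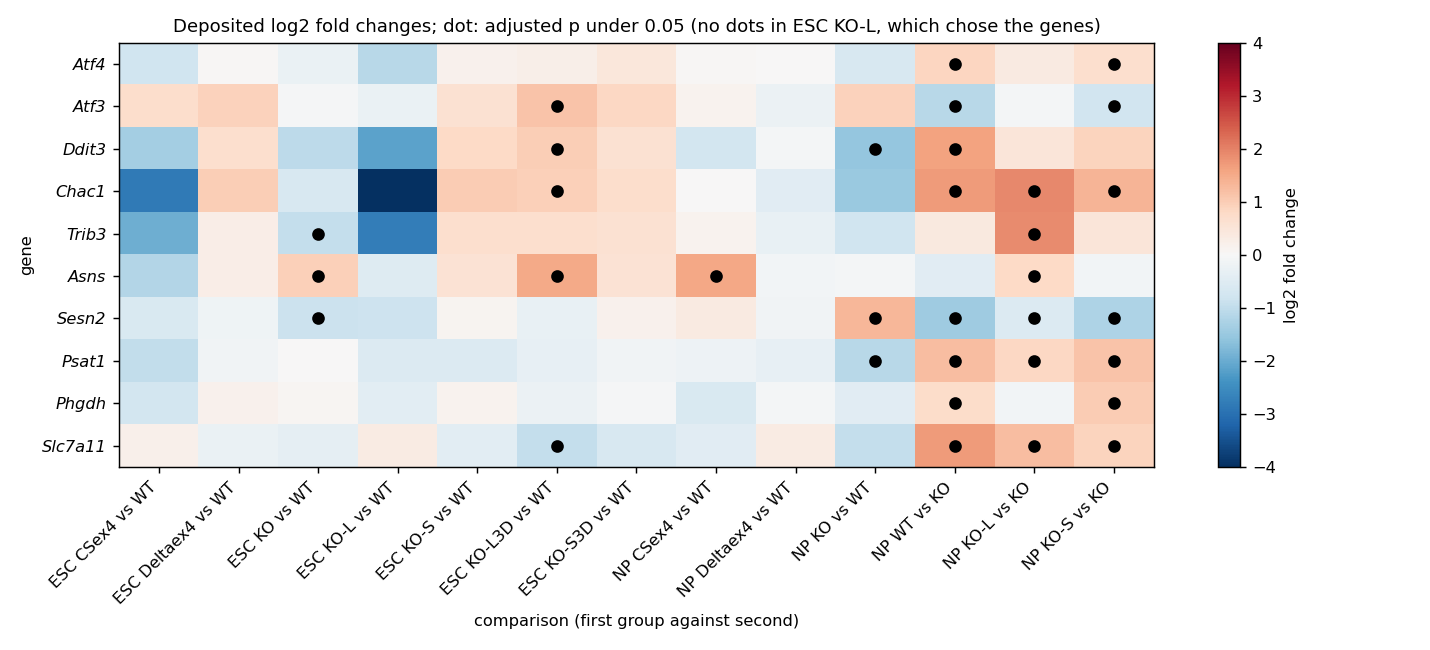
Log2 fold changes of the authors' deposited tables for the 10 genes (rows) in 13 comparisons (columns), first group against second; red is higher, blue is lower, and a dot marks an adjusted p under 0.05. ESC KO-L has no dots because it chose the genes; the dots gather in the last 4 NP columns, where KO is on one side.

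NP took no part in the choice of the genes, and there 3 members differed between KO and WT pair 1 and 8 between KO and WT pair 2. In NP KO, Ddit3 and Psat1 fell and Sesn2 rose against pair 1, while 21.4% of genes were called, 11.6% as higher and 9.85% as lower. Ddit3 stood at 4.92 and 3.55 CPM in KO against 11.6 to 12.1 in the 4 WT libraries. These lay close together and all above KO, and the authors' deposited table gives -1.53 ± 0.50 (adjusted p 0.0138). Psat1 stood at 103 and 104 CPM in KO, below 281, 169, 265 and 203 in WT, with -1.11 ± 0.34 in the authors' deposited table (adjusted p 0.00817). Sesn2 stood at 161 and 144 CPM in KO, above 79.3, 43.2, 61.9 and 46.7 in WT, with 1.34 ± 0.36 in the authors' deposited table (adjusted p 0.0022). With WT pair 2 in place of pair 1, and the same KO libraries, 8 of 10 members were called, where 32.9% of genes were. There, 6 were higher in WT than in KO and 2 were lower, against 15.6% and 17.3% of genes. Slc7a11 was higher in WT by 1.71 ± 0.26 (adjusted p 1.3e-09), Chac1 by 1.72 ± 0.53 (adjusted p 0.00494), Ddit3 by 1.60 ± 0.43 (adjusted p 0.00123) and Psat1 by 1.24 ± 0.27 (adjusted p 4.4e-05) in the authors' deposited table. Atf4 followed with 0.87 ± 0.26 and Phgdh with 0.74 ± 0.27 (adjusted p 0.00451 and 0.0194, authors' deposited table). Sesn2 was lower in WT, by 1.41 ± 0.27, and so was Atf3, by 1.12 ± 0.37 (adjusted p 2.41e-06 and 0.0109, authors' deposited table).

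Slc7a11 stood at 99.6 and 131 CPM in NP KO, below 158, 299, 332 and 372 in the 4 WT libraries. Atf4 stood at 101 and 75.5 CPM in KO, below 150.4, 116, 153 and 149. Chac1 stood at 3.07 and 1.52 CPM in KO against 13.6, 2.56, 10.6 and 4.19, so that pair 1 overlapped KO and pair 2 did not. Within each WT pair, library a was well above b in Chac1 and Trib3. Trib3 stood at 15.5 and 4.22 CPM in pair 1 and at 9.47 and 3.69 in pair 2, against 4.55 and 5.15 in KO. Library a of pair 1, the one with the higher Chac1, had the lowest neural precursor markers of the 4 (359 CPM against 1123 to 1258). Library a of pair 2, again the one with the higher Chac1, had the highest (1258 CPM). Asns was not called against either pair (-0.09 ± 0.45 and, for WT against KO, -0.45 ± 0.27 in the authors' deposited tables). Endoderm markers summed to 314 and 539 CPM in NP KO against 63.7 to 236 in NP WT, besides the low neural markers given above. The part of this shift in cell markers in the member changes was not tested.

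Adding back either isoform moved most of these genes in NP. Against KO, 5 members were higher and 1 lower in KO-L, where 24.7% of genes were called (10.9% higher and 13.8% lower). In KO-S 5 were higher and 2 lower, where 34.5% of genes were called (16.4% higher and 18.0% lower). Chac1 stood at 9.30 and 6.83 CPM in KO-L and at 5.44 and 5.05 in KO-S, all above KO. The authors' deposited tables give 1.92 ± 0.47 for KO-L (adjusted p 0.000337) and 1.35 ± 0.52 for KO-S (adjusted p 0.0314). Psat1 stood at 175 and 181 CPM with the long isoform and at 202 and 235 with the short one. Slc7a11 stood at 252 and 263 CPM with the long isoform and at 177 and 221 with the short one. All of these libraries were above KO. Psat1 rose by 0.83 ± 0.19 with the long isoform and by 1.16 ± 0.16 with the short one, and Slc7a11 by 1.22 ± 0.20 and 0.88 ± 0.16 (adjusted p between 1.18e-11 and 0.000156, authors' deposited tables). Sesn2 fell in both, to 109 and 91.9 CPM in KO-L and to 63.0 and 60.2 in KO-S, by 0.56 ± 0.20 and 1.22 ± 0.17 (adjusted p 0.022 and 6.6e-12, authors' deposited tables). In KO-L, Trib3 (20.2 and 14.8 CPM) rose by 1.89 ± 0.36 and Asns (286 and 223 CPM) by 0.79 ± 0.21 (adjusted p 1.98e-06 and 0.0013, authors' deposited table). In KO-S, Atf4 rose by 0.66 ± 0.17 and Phgdh by 1.01 ± 0.15, and Atf3 fell by 0.77 ± 0.31 (adjusted p 0.000367, 5.59e-10 and 0.0372, authors' deposited table). KO-L and KO-S were not tested against each other.

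The return towards WT was tested as the difference between rescue and WT, both against the same NP KO libraries. KO-S was called different from WT pair 2 in none of the 10 members, with 4.77% of genes called and 1 of 10 at an unadjusted p under 0.05. That 1 was Slc7a11, at -0.83 (95% interval -1.43 to -0.23). It stood at 177 and 221 CPM in KO-S, below 332 and 372 in WT pair 2. KO-L was called different in Asns alone, higher by 1.24 ± 0.34 (adjusted p 0.00405), with 14.2% of genes called, 6.91% as higher. That test takes the shared KO libraries as separate and so has too large an error. For KO-L minus WT, uncalled members with intervals apart from 0 were Trib3 at 1.51 (95% interval 0.22 to 2.79) and Atf3 at 1.05 (0.11 to 1.98). Phgdh at -0.84 (-1.49 to -0.19) and Sesn2 at 0.86 (0.20 to 1.51) were the others. In the limma-voom fit of the reads, KO-L had higher Asns and Sesn2 and lower Atf4, Ddit3 and Phgdh than WT pair 2 (39.6% of genes called), and KO-S differed from it in no member (8.64%). In that fit KO-L against KO had 2 calls, Psat1 and Slc7a11 (26.0% of genes called), and leaving out a single KO or KO-L library left 0 or 1. Mesenchyme markers summed to 227 and 240 CPM in NP KO-L, against 18.8 to 99.9 in NP WT. ESC markers summed to 1554 and 1077 CPM there against 188 to 553, and blood and endothelium markers to 128 and 122 against 6.82 to 31.7. The part of these lists was not tested.

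**Figure D5:**
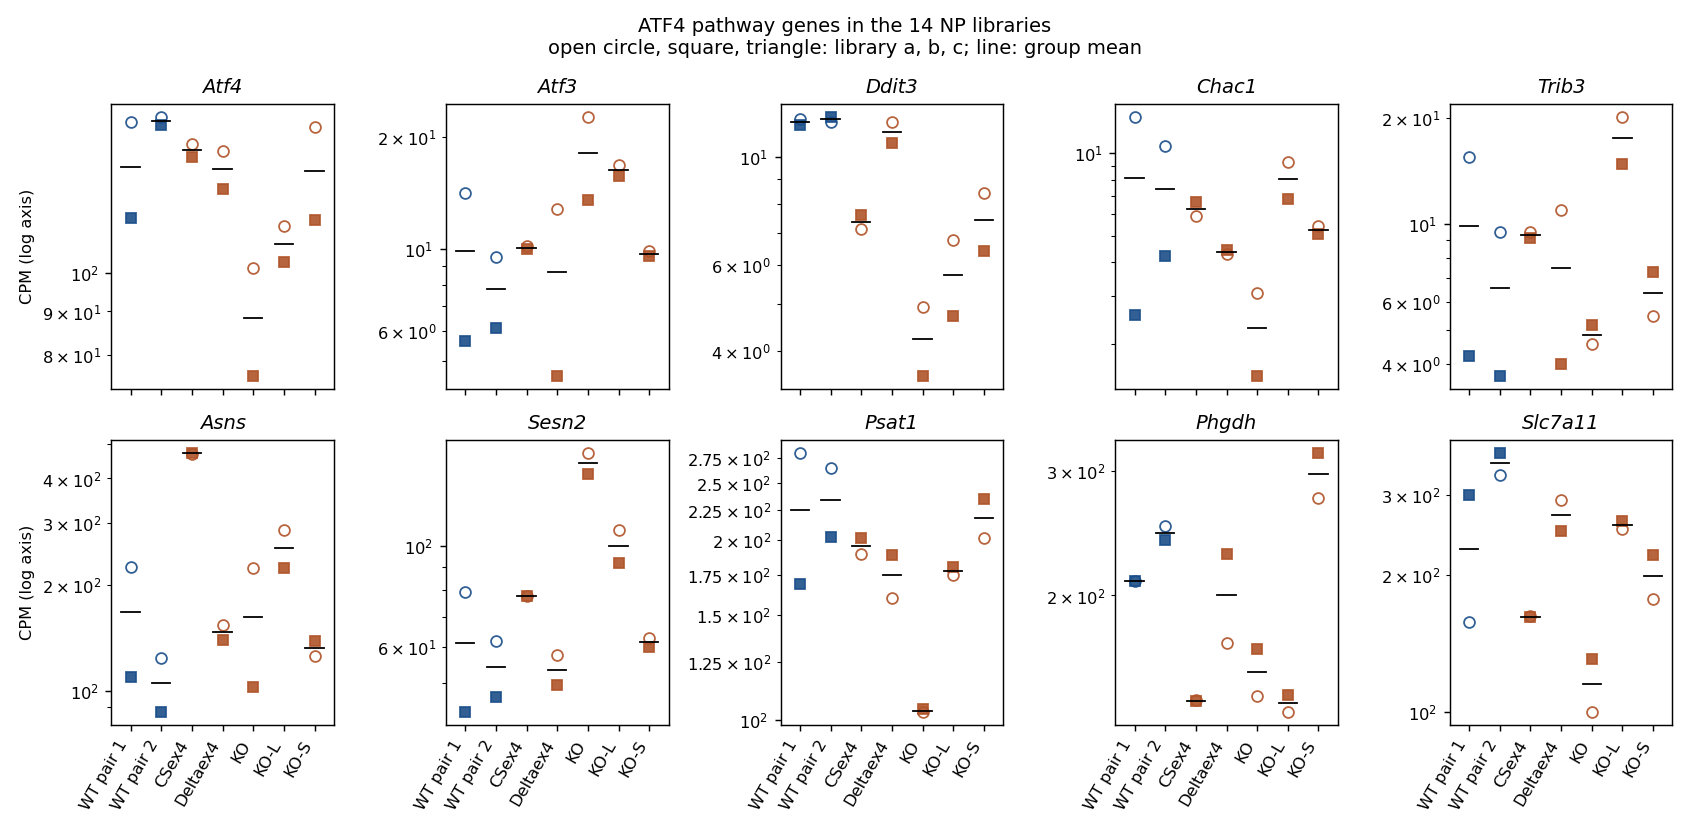
CPM (log axis) of the 10 genes in the 14 NP libraries by group, with the 2 WT pairs in blue; symbols are libraries and lines are group means. KO is lowest for Atf4, Ddit3, Psat1 and Slc7a11 and highest for Sesn2, and Asns is highest in CSex4.

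In NP CSex4, Asns alone was called. It stood at 469 and 473 CPM against 225 and 109.8 in WT pair 1, and rose by 1.54 ± 0.34 (adjusted p 0.000337, authors' deposited table), with 5.53% of genes called, 4.08% as higher. The WT libraries of pair 2 stood at 124 and 87.1 CPM, so that CSex4 was the highest of all NP groups. ESC markers summed to 2029 and 2063 CPM in NP CSex4 against 188 to 553 in NP WT, and their part in the Asns level was not tested. The near identity of the 2 CSex4 libraries bears on the error of this value. Leaving out either of them, or WT library b of pair 1, removed the Asns call in the limma-voom fit, which with all libraries gave 1.57 ± 0.35 (adjusted p 0.0257, 8.73% of genes called). No member was called in NP Deltaex4, where 0.0809% of genes were called and no member had an unadjusted p under 0.05. CSex4 minus Deltaex4 for Asns was 1.64 ± 0.50 (adjusted p 0.0517, 1.78% of genes called), which missed the threshold in the z test and passed in the limma-voom fit (1.68 ± 0.35, adjusted p 0.0106, 22.6% of genes called).

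Effects of the same genotype differed between ESC and NP for 3 members. The KO effect on Sesn2 was -0.86 in ESC and 1.34 in NP, where WT was pair 1, a difference of -2.20 ± 0.47 (z test, adjusted p 7.19e-05). The ESC side leans on WT library c: the log2 ratio of means there was -0.99 with it and -0.48 without it. The KO effect on Psat1 was 0.02 in ESC and -1.11 in NP, a difference of 1.13 ± 0.40 (adjusted p 0.0384), in a test that called 14.3% of genes. The CSex4 effect on Asns was -1.16 in ESC and 1.54 in NP, a difference of -2.71 ± 0.52 (adjusted p 3.3e-05), with 4.97% of genes called, 2.65% as lower. All 3 rest on the authors' deposited tables, and no library is shared between the ESC and NP sides. For Deltaex4 no member differed (0.0071% of genes called, 0 of 10 with an unadjusted p under 0.05). For Chac1 the KO effects differed by 0.85 with a 95% interval of -1.28 to 2.98. As levels, scaled only to each library's own total and not tested between the cell types, Chac1 had a median of 60.4 CPM over ESC libraries. Over NP libraries its median was 5.25 CPM, and for Trib3 the medians were 62.5 and 8.20. Atf4 had no overlap between the cell types, with 193 to 769 CPM in ESC and 75.5 to 153 in NP. Slc7a11 had the higher median in NP, 236 against 128 CPM, with overlap.

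Other genes of the pathway and of neighbouring stress responses were counted in lists, which say no more than their counts. The list of further ATF4 pathway factors and effectors held 11 genes. In ESC KO-L3D 4 of them rose and 0 fell, led by the secreted factor Gdf15 with 3.10 on the log2 scale of the authors' deposited table, then the bZIP factor Atf5, and then the bZIP factor Cebpb with 1.76. Of all genes, 8.22% were higher there. In ESC KO-S3D, with 3.23% of all genes called, Gdf15 (2.49) and Atf5 (2.05) rose. In NP KO against WT pair 1, 4 of the 10 that were tested fell and 0 rose, with Stc2 at -1.76 and Ddit4 at -1.14 in the authors' deposited table, where 9.85% of all genes were lower. The list of 16 genes for amino acid synthesis, one-carbon enzymes and transporters had 3 that fell in NP KO, led by Mthfd2, a mitochondrial one-carbon enzyme (-1.92), and 7 higher against 1 lower in NP KO-L and 5 against 0 in NP KO-S. Of the 12 cytosolic aminoacyl-tRNA synthetases, 8 rose in NP KO-L and 7 in NP KO-S and none fell, and Gars led in both (1.34 and 1.24 in the authors' deposited tables). Of all genes, 10.9% were higher and 13.8% lower in NP KO-L, and 16.4% and 18.0% in NP KO-S, which holds for the metabolic list too. Medians of the synthetases were 0.58 and 0.52, against 0.01 and 0.00 over all genes. In ESC KO-L3D, where the further factors rose, the other lists were mixed. The metabolic list had 2 higher and 2 lower, with Pycr1 at 1.47 and Mthfd2 at -1.31. The synthetases had 1 higher, Cars at 0.71, and 2 lower, Gars at -1.34 and Eprs at -0.81. There, 8.22% of all genes were higher and 10.1% lower. In ESC KO-L, which chose the members, 4 of the 10 factors tested and 6 of the 16 metabolic genes were past the threshold, all lower. So was 1 of the 12 synthetases. Of 12 chaperone and unfolded protein response genes outside the ATF4 branch 1 was lower, Herpud1 at -1.81. Of all genes, 2.23% were past the threshold there, 0.771% as lower, and nothing is read from these counts.

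The 7 genes for eIF2 kinases, eIF2 phosphatase subunits and eIF2 alpha gave 0 calls in ESC KO-L and ESC KO, 2 lower in ESC KO-L3D, and 1 higher and 1 lower in NP KO, with 2 higher and 1 lower in NP WT pair 2 than in KO. In KO-L3D, where 10.1% of all genes were lower, the endoplasmic reticulum kinase gene Eif2ak3 (PERK) fell by 1.41 and Eif2s1, the gene of eIF2 alpha, by 1.01 (authors' deposited table). Eif2ak4, the amino acid sensing kinase GCN2, fell by 1.22 in NP KO and Eif2ak2, the RNA sensing kinase PKR, rose by 1.16 (authors' deposited table). Of 12 chaperone and unfolded protein response genes outside the ATF4 branch, none was called in NP KO against pair 1, and 1 was higher and 6 lower in NP WT pair 2 than in KO, against 15.6% and 17.3% of all genes. Among 8 targets of p53, a response that also induces Sesn2, 5 rose and none fell in NP KO against pair 1, with Cdkn1a at 2.03, Phlda3 at 1.69 and Ccng1 at 1.68. There, 11.6% of all genes were higher and 9.85% lower. In pair 2 against KO 7 of the 8 were lower in WT (17.3% of all genes). In KO-L 6 were lower and 1 higher than in KO, and in KO-S 5 were lower (13.8% and 18.0% of all genes lower). In ESC KO, where Sesn2 fell, 3 of these 8 fell and none rose, against 7.27% of all genes lower. Of 7 targets of the oxidative stress factor NRF2, which also acts on Slc7a11, 3 rose in NP KO (Srxn1 at 1.67, Nqo1 at 1.63 and Gclm at 1.16), where Slc7a11 was low, against the 11.6% above. In ESC KO 5 of the 7 fell, with Gclm at -0.98, against the 7.27% above, and Slc7a11 gave no call. In ESC KO-L3D, where Slc7a11 fell, 3 of the 7 fell and 0 rose, with Gclm at -1.26, against the 10.1% above. In NP KO-L and KO-S, where Slc7a11 rose, 2 and 3 of them fell and 0 rose, against the 13.8% and 18.0% above. The part of the p53 and NRF2 responses in Sesn2 and Slc7a11 was not tested. All of these values are from the authors' deposited tables.

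Across the 13 log2 fold changes, the genes whose pattern was most like that of Chac1 were Arl14ep (Pearson r 0.96), Cryzl1 (0.95), Psph (0.94), Herpud1 (0.93) and Bcdin3d (0.93), out of 10228 genes with a baseMean of at least 100 in every table. Psph is the last enzyme of serine synthesis and Herpud1 a protein of endoplasmic reticulum degradation. Among the members, Trib3 (0.96), Atf4 (0.94) and Ddit3 (0.92) were most like Chac1, while Atf3 (-0.13) and Sesn2 (-0.13) were not. The genes most like the median over the 10 members were Apoe (0.97), Pkn3 (0.96), Spata24 (0.95), Sars (0.95) and Mpnd (0.94). The comparisons share libraries and include the one that chose the genes, so these coefficients are a description.

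Of the 10 members, 1 lay at regions of the authors' Suz12 and H3K27me3 lists. Atf3 (chr1:191170296-191183333) lay at a Suz12 region, chr1:191182167-191186218, and at an H3K27me3 region, chr1:191179609-191186491, both over its start. Both lists are named for DiffBind and WT, and what WT was compared with is not given in the sources used here. By the authors' value per region, lowest first, these ranked 920 of 2865 and 820 of 6882. Within 2500 bases of a gene's start or end, 1 of the 10 members was at a Suz12 region and at an H3K27me3 region, against 10.4% and 19.6% of 26124 genes. Chac1 (chr2:119351242-119354326), Trib3 (chr2:152337425-152344060), Asns (chr6:7675165-7693209) and the other 6 members had none within 10000 bases of the start or end of their full span. Gene positions are those of GRCm38.p6; mm10 is the only mouse build in the submitters' processing notes. Atf3 rose in ESC KO-L3D, as given above, and in ESC KO its log2 fold change was -0.03 ± 0.34 (adjusted p 0.966) in the authors' deposited table.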

How the data were processed

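The 10 genes and the gene lists were chosen with earlier results of these data known. Per the submitters' processing notes, TopHat, Bowtie, DESeq2 and DiffBind were used and the builds mm10 and dm3 are named, with no role or version. The authors deposited 13 tables with baseMean, a signal (mean reads over size factors), log2 fold changes with their SEs, a test score, and a p-value with its adjusted value. Names of the deposited tables call the fits paired. The deposited region lists give 1 score per region. Members were called where the deposited adjusted p was under 0.05. Because baseMean is a mean of whole reads over size factors, the reads of all 32 libraries were solved for in all 26171 genes. On simulated data, 99.9% (ESC) and 100% (NP) of 1000 values at member levels came back right. The replicate numbers of the labels were not tied to these libraries. Differences of 2 deposited fold changes were tested by z (two-sided, normal, Benjamini-Hochberg over all genes with a baseMean of at least 10), with Python 3.11.15, numpy 2.4.6, scipy 1.17.1 and pandas 2.3.3. The recovered counts, computed from the deposited tables, were refitted without pairing by limma 3.58.1 (voom) in R 4.3.3, over 16685 ESC and 17431 NP genes; in simulation this recovered 25.5% of 200 genes changed by 1 on the log2 scale (ESC KO-S). All 10 members are named, and from each list only genes among its 3 largest called changes in a comparison. No column of per-sample values was left unused (0).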

Additional observations from a re-analysis of the deposited data

Results flagged for a closer look

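The KO effect on Sesn2 differed between cell types by -2.20 on the log2 scale (ESC minus NP), with a fall in ESC and a rise in NP. The ESC fall was smaller without WT library c (log2 ratio of means -0.48, against -0.99 with it). The KO effect on Psat1 differed by 1.13, with no call in ESC and a fall in NP. The CSex4 effect on Asns differed by -2.71, with a rise in NP and -1.16 in ESC, which was not called. Each of these passed a z test of the difference itself at an adjusted p under 0.05. In the 4 NP WT libraries, Atf4 in library b of pair 1, at 116 CPM, lay far below the others (149 to 153 CPM) by Dixon's test, a distance that chance gives in about 1 in 20 groups.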

How the results depend on the processing

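Outside ESC KO-L, whose directions chose the genes, no member called in a deposited table changed direction: all 176 alternative values of 33 called results kept it. The deposited fits, named as paired, were set against a fit of the recovered reads with no replicate block (limma-voom, chosen after seeing the data, as was leaving out libraries of it). No refit with the block was made. Without the block the members called were 1 in ESC KO (3 deposited), 0 in ESC KO-L (4), 3 in ESC KO-L3D (5), 5 in NP KO (3), 2 in NP KO-L (6), 4 for ESC CSex4 minus Deltaex4 (0), 1 for NP CSex4 minus Deltaex4 (0) and 5 for NP KO-L minus WT (1). Shares of all genes called in this fit were 19.0% in ESC KO, 39.7% in ESC KO-L3D and 26.0% in NP KO-L. They were 22.6% for NP CSex4 minus Deltaex4 and 39.6% for NP KO-L minus WT. In ESC KO-L the fit called 0 of 16685 genes, so its 0 is not particular to the members. For ESC CSex4 minus Deltaex4 it called 906 of these genes higher and 930 lower, where the z test called 0.0766%. With the other WT pair, 8 were called in NP KO. At an adjusted p under 0.01 the counts were 1 in ESC KO, 1 in ESC KO-L3D, 0 for KO-S minus KO, 0 for KO-L3D minus KO and 1 for the KO effect between ESC and NP. With a log2 change of at least 1 they were 0 in ESC KO, 2 in ESC KO-L3D, 3 in NP KO-L and 4 in NP KO-S. Recentring left 1 in ESC KO, and adjustment over all genes with a p left 3 in ESC KO-L3D. With standard errors times 0.71, counts were 2 for ESC CSex4 minus Deltaex4, 1 for its NP counterpart, 6 for NP KO-L minus WT and 1 for NP KO-S minus WT. With C in place of the open base, 3 promoters matched. The cause of these shifts was not tested.

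Leaving out 1 library at a time, without the block, and taking a lone library to vary like the other groups, gave these ranges of members called: 0 to 3 in ESC CSex4 (3 without CSex4 library b), 0 to 1 in ESC KO, 0 in ESC KO-L and ESC Deltaex4, 0 to 4 in ESC KO-S and 0 to 6 in ESC KO-S3D (4 and 6 without WT c), 2 to 6 in ESC KO-L3D, 0 to 3 in NP CSex4 and NP Deltaex4 (3 without library a and b of WT pair 1, in turn), 4 to 6 in NP KO, 5 to 7 for NP WT against KO, 0 to 1 in NP KO-L and 3 to 5 in NP KO-S. For differences they were 0 to 6 for ESC CSex4 minus Deltaex4, 0 to 2 for KO-L3D minus KO, 0 for KO-S minus KO, KO-S3D minus KO-S and NP KO-S minus WT, 0 to 2 for NP CSex4 minus Deltaex4 and 2 to 4 for NP KO-L minus WT. Medians over the members then ranged from 0.088 to 0.67 in ESC Deltaex4, from 0.38 to 0.93 in ESC KO-S, from 0.20 to 1.13 in ESC KO-L3D and from -0.60 to 0.24 in NP Deltaex4. All of these ranges leave out only libraries of the 2 groups compared. With ESC WT library a, b or c left out, the fit called 2, 2 and 4 members higher for KO-S minus KO. Of all 16685 genes, 1020, 1176 and 1353 were higher there. For KO-L3D minus KO it called 3, 3 and 5 members higher, with 1173, 1380 and 1498 genes higher. The comparisons between ESC and NP were not repeated with a library left out. Low counts limit Chac1 in NP, at 1.52 CPM in its lowest library.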
